A study of Mus musculus with 19 samples.

Results

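The genes described here are 4 Trim30 genes, Trim30a, Trim30b, Trim30c and Trim30d, and 5 genes of the p200 family, Ifi203, Ifi204, Mnda, Mndal and Aim2. They were chosen by their values in DN3a thymocytes, where Ifi204 and Trim30c were the furthest above WT in Rptor-/- cells, so the genotype differences of these genes in DN3a cells are given as a description with no test. A gene was read by the probe set that carries its symbol and no other. Of the 9 genes, 7 had such a probe set, 1 each, out of 22180 genes read in the same way. Ifi203 was present only on a probe set that names several genes, no probe set carried the symbol Mnda, and neither gene has a value here.

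TRIM30 proteins belong to the tripartite motif family, whose RING domain makes many of its members ubiquitin ligases, and the mouse genes sit side by side in a cluster related to the antiviral TRIM5 genes. Proteins of the p200 family, also called PYHIN proteins, combine a pyrin domain with HIN domains that bind DNA, and several of them act as DNA sensors or as nuclear regulators of growth and transcription. Both families are known as interferon-inducible, and p200 genes are best studied in myeloid cells.

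The study hybridised RNA from sorted thymocyte populations of mice to 19 expression arrays. The Rptor-/- cells came from a CD2-cre mouse crossed with a Raptorfl/fl mouse, so that Cre acts in lymphoid cells and the gene of Raptor, a subunit of the kinase complex mTORC1, is deleted; the WT cells came from WT mice. The groups were ISP cells (immature single positive cells, CD4-CD8+TCRβ-) with 3 Rptor-/- and 4 WT arrays, DN3a thymocytes (CD25hi, CD44- and CD28-, without CD4, CD8 or either T cell receptor) with 3 and 3, and γδ T cells (lacking CD4, CD8 and TCRβ, and also Gr1 and NK1.1) with 3 and 3. All mice are labelled C57BL/6. Age, sex, substrain, Cre in the WT mice and whether replicates came from separate animals are not given in the sources used here. A p-value here therefore reflects the spread among these arrays, which may be technical. A limma p-value for a population also draws on the spread within the other populations, unless only its own arrays were fitted. Xist lay above all 3 measured Y-linked genes on all 19 arrays, the pattern of female cells.

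Values are log2 expression values per probe set. The 7 ISP arrays had medians of 3.80 to 3.88 and the 12 DN3a and γδ arrays had medians of 6.03 to 6.13, so ISP levels were compared only with ISP levels. Cd8a, a CD8 subunit, lay at 11.21 to 11.48 on the ISP arrays, and Il2ra, which encodes CD25, at 12.53 to 12.93 on the DN3a arrays. Blk, a kinase of γδ thymocytes that is not part of the sort, lay at 11.42 to 11.78 on the γδ arrays. The γδ and DN3a cells were sorted as lacking CD8. On the γδ arrays Cd8a lay at 5.58 to 6.14 in WT and 5.14 to 5.44 in Rptor-/-. Cd8b1, another CD8 subunit gene, lay at 8.75 to 8.85 in WT (81.5th percentile) and 6.39 to 7.50 in Rptor-/- γδ arrays. On the DN3a arrays Cd8b1 lay at 7.055 to 7.87 in WT and 6.51 to 6.61 in Rptor-/-. Rptor was lower in Rptor-/- than in WT cells, with log2 differences of -0.58 in DN3a cells (limma adjusted p = 0.000598), -0.30 in γδ T cells (limma adjusted p = 0.0489) and -0.24 in ISP cells (limma adjusted p = 0.0384). The Rptor values overlapped between genotypes in ISP cells, and the ISP and γδ calls were lost under several alternatives. Over all genes limma called 12.4% in ISP, 0.983% in DN3a (0.712% higher and 0.271% lower in Rptor-/-) and 3.05% in γδ T cells. Whether the Rptor probe set lies in the deleted part is not known. In bulk samples such as these, fewer cells of a type and less RNA per cell cannot be told apart.

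The 4 Trim30 genes lie on mouse chromosome 7, the p200 genes on chromosome 1 and Rptor on chromosome 11 (RefSeq, GRCm38.p6). The sequences just before the start sites of Trim30a, Trim30d and Trim30c are shown because these 3 genes carry the largest Trim30 differences and because their upstream regions are alike. Each run holds the 250 bases before the start site, 5′ to 3′ on the gene's strand, which is the minus strand for all 3 (Trim30a chr7:104465194-104465443, Trim30d chr7:104507850-104508099, Trim30c chr7:104400779-104401028). The capitals mark the stretch that matches the core of the interferon-stimulated response element (GAAA, any 2 bases, GAAA) on the opposite strand in Trim30a and Trim30d, and the stretch aligned with it in Trim30c.
Trim30a: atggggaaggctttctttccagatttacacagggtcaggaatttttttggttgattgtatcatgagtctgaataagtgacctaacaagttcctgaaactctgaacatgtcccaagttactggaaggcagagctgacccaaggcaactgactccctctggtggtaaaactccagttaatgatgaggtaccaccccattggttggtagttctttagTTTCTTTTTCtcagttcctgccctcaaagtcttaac
Trim30d: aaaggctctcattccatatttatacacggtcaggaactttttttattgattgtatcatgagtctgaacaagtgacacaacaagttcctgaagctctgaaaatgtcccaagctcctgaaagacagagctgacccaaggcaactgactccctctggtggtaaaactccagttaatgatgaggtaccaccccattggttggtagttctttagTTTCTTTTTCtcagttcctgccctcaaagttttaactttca
Trim30c: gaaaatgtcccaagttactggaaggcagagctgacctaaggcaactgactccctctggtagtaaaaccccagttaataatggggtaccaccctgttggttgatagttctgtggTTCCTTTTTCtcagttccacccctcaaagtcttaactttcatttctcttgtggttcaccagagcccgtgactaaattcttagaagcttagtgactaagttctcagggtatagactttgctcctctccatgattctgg

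In windows of 300 bases around the start sites (250 before and 50 after), the Trim30d window matched the Trim30a window at 276 of 294 aligned bases (93.9%), Trim30c at 165 of 189 (87.3%, with 8 gap bases) and Trim30b at 134 of 221 (60.6%, with 55 gap bases). The stretch TTTCTTTTTC began at -36 from the start site of Trim30a and at -41 from that of Trim30d. The aligned stretch of Trim30c, TTCCTTTTTC, began at -137 from its start site and differed by T3C, counted from 1 at the first base of the Trim30a stretch as printed. The RefSeq span of Trim30c reaches 104400852 and that of Trim30d 104507853, past the start sites used here. Their printed runs thus lie partly inside the annotated genes, and these positions depend on the start site chosen. Trim30c had 1 match to TTCNNNGAA, the core of a STAT site, TTCTTAGAA, at -62 from its start site. Windows were listed for 6 of the 7 measured genes, 8 windows in all; Ifi204 had none in the table used. The response element core, searched on both strands, was in the windows of 3 of the 6 genes, Trim30a, Trim30d and Mndal, against 3.99% of all genes in the table and 3.44% of its 32851 windows. TTCNNNGAA, which reads the same on both strands, was in the window of 1 gene of the 6, Trim30c, against 9.55% of all genes and 8.30% of all windows. A match is a description of letters and not evidence of binding.

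Trim30a and Trim30d were higher in Rptor-/- than in WT ISP cells, and Trim30c was not. In ISP cells 2 of the 7 genes passed the limma threshold of 0.05 upward and 0 downward, beside a background of 5.87% of all genes upward and 6.57% downward; at an unadjusted p under 0.05 the counts were 3 upward and 1 downward. Groups did not overlap for 3 of the 7 genes higher and 0 lower in Rptor-/-, beside 7.75% and 8.95% of all genes. The median difference of the 7 genes was 0.10 on the log2 scale, against -0.0039 for all genes.

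Trim30a encodes a ligase-like protein that curbs Toll-like receptor signalling to NF-kB in mouse macrophages. Its ISP levels were 4.42, 4.61 and 4.92 in Rptor-/- arrays, against 4.15, 3.31, 3.79 and 3.60 in WT arrays. All 3 Rptor-/- arrays lay above all 4 WT arrays. The difference was 0.94 on the log2 scale (SE 0.14, limma adjusted p = 0.000134), or 1.92-fold. That SE pools the spread of all populations, and the ISP arrays had SDs of 0.25 in Rptor-/- and 0.35 in WT. With only the ISP arrays in the fit the limma adjusted p was 0.0472, just under the threshold.

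Trim30d, a close relative of Trim30a, had ISP levels of 4.32, 4.45 and 3.95 in Rptor-/- arrays, against 3.06, 2.84, 2.24 and 3.01 in WT arrays. The lowest Rptor-/- array was above the highest WT array. The difference was 1.45 on the log2 scale (SE 0.17, limma adjusted p = 8.3e-06). This SE too pools the spread of all populations, and the ISP arrays had SDs of 0.26 in Rptor-/- and 0.38 in WT. With only the ISP arrays in the fit the limma adjusted p was 0.0136. The WT arrays ranked at the 5.22nd to the 28.4th percentile of genes, where signal is low and differences can be compressed, so no fold is given. For single values the exact two-sided permutation test gave p = 0.0571 for Trim30a and for Trim30d, the smallest that 3 arrays against 4 allow.

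Trim30c read 2.25, 2.63 and 2.31 in Rptor-/- ISP arrays, against 2.37, 2.37, 2.63 and 2.37 in WT ISP arrays. The groups overlapped, and the difference of -0.05 on the log2 scale did not pass (95% interval -0.29 to 0.20, limma adjusted p = 0.92). These levels ranked at the 8.79th percentile of all genes by the median of the ISP arrays, so a difference of the size seen in the other populations may not be measurable at that signal. Trim30b, another member of the cluster, averaged 2.80 ± 0.06 in Rptor-/- (SD, n = 3) and 2.93 ± 0.08 in WT ISP cells (SD, n = 4; limma adjusted p = 0.535), also with overlapping groups.

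None of the 3 p200 genes passed in ISP cells by limma (0 upward and 0 downward), beside 5.87% of all genes upward and 6.57% downward. A count of 0 among 3 genes is not apart from these shares. At an unadjusted p under 0.05 the counts were 1 upward and 1 downward. Mndal, which encodes a nuclear protein related to MNDA and is linked to growth control in mouse cells, read 8.34, 8.27 and 8.23 in Rptor-/- arrays, against 8.08, 7.68, 7.96 and 8.06 in WT arrays. The genotypes did not overlap, and the difference of 0.34 on the log2 scale missed the threshold (SE 0.12, limma adjusted p = 0.0858). Aim2, the sensor of cytosolic double-stranded DNA that starts an inflammasome, averaged 4.46 ± 0.24 in Rptor-/- (SD, n = 3) and 4.71 ± 0.08 in WT arrays (SD, n = 4); the groups shared a value, and the limma adjusted p was 0.0923. Ifi204, a p200 protein studied in mouse macrophages as a DNA sensor and a differentiation factor, ranked at the 2.58th percentile of genes on the ISP arrays, with 2.18 ± 0.20 in Rptor-/- (SD, n = 3) and 2.08 ± 0.10 in WT cells (SD, n = 4; limma adjusted p = 0.878).

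**Figure D1:**
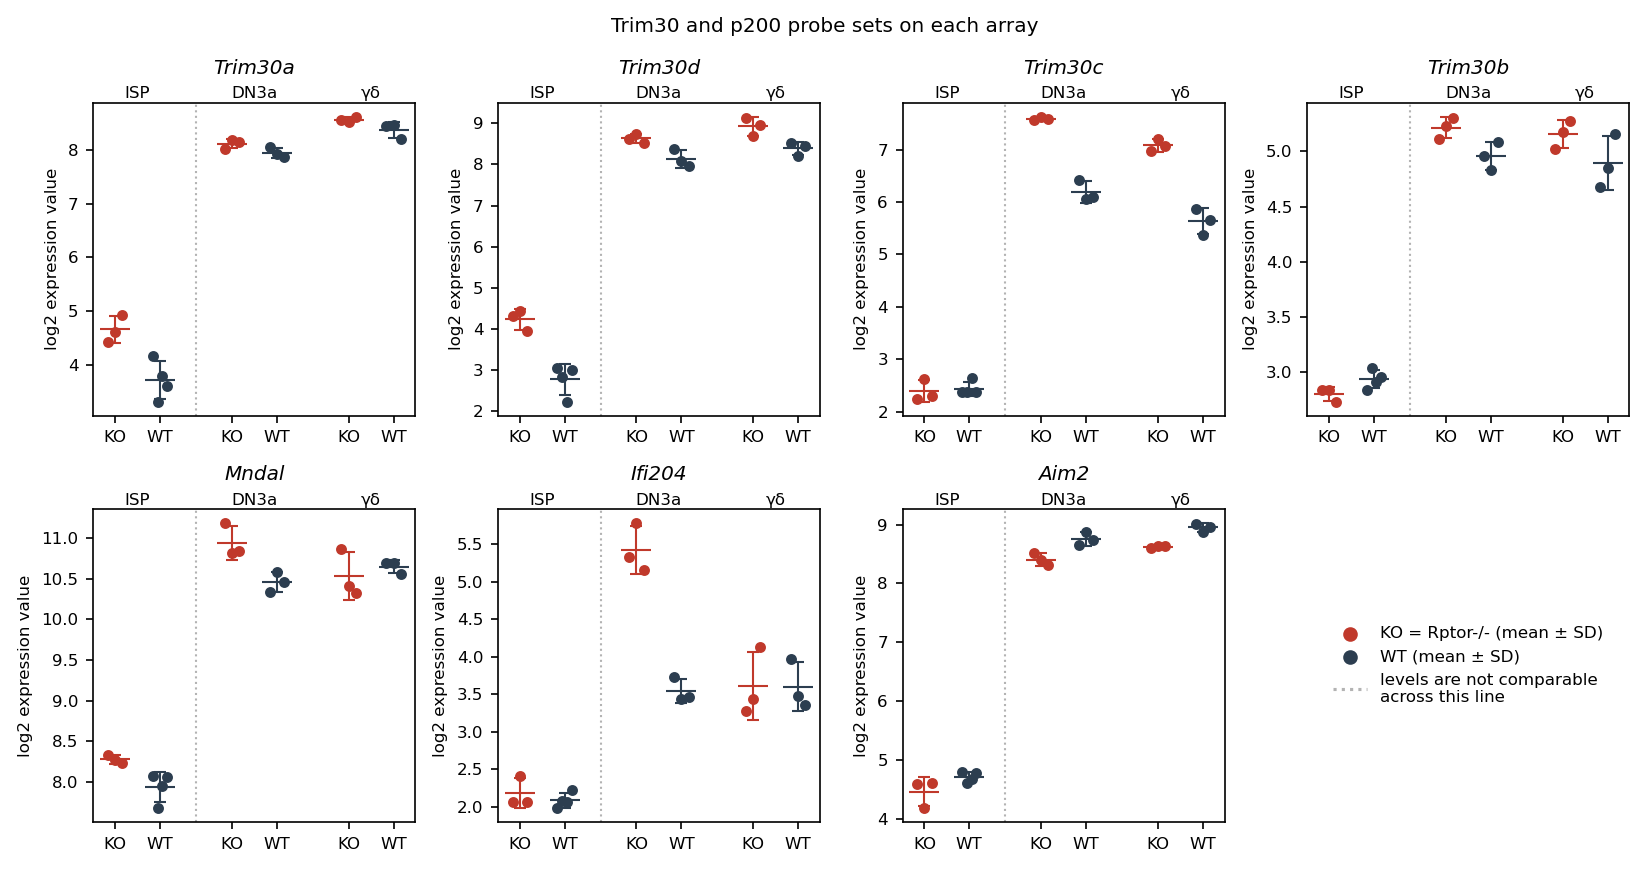
Log2 expression value (y axis, own scale for each gene) of the 7 measured genes on each of the 19 arrays, Rptor-/- (KO) left of WT in each population, with the mean and SD as bars and a dotted line between the ISP arrays and the other arrays, whose levels cannot be compared. Trim30c is apart between genotypes in DN3a and γδ T cells, Ifi204 in DN3a cells, and Trim30d in all 3 populations. Also higher with no overlap are Trim30a in ISP and γδ T cells, Mndal in ISP and DN3a cells and Trim30b in DN3a cells. Aim2 is lower with no overlap in DN3a and γδ T cells.

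Trim30c was higher in Rptor-/- than in WT γδ T cells. It was the only one of the 7 genes past the limma threshold there: 1 passed upward and 0 downward, beside a background of 1.77% of all genes upward and 1.28% downward, and at an unadjusted p under 0.05 the counts were 3 upward and 1 downward. Groups did not overlap for 3 of the 7 genes higher and 1 lower in Rptor-/-, beside 12.2% and 8.78% of all genes. The median difference of the 7 genes was 0.19 on the log2 scale, against 0.0042 for all genes.

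Trim30c read 6.96, 7.20 and 7.07 in Rptor-/- γδ arrays, against 5.87, 5.38 and 5.65 in WT γδ arrays. Every Rptor-/- array was more than 1 log2 unit above every WT array. The difference was 1.45 on the log2 scale (SE 0.13, 95% interval 1.18 to 1.71, limma adjusted p = 1.05e-06); the exact two-sided permutation test gave p = 0.1, the smallest that 3 arrays against 3 allow.

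Trim30d read 9.14, 8.69 and 8.96 in Rptor-/- γδ arrays, against 8.52, 8.20 and 8.44 in WT γδ arrays. All Rptor-/- arrays were above all WT arrays, and the difference of 0.54 on the log2 scale did not pass (SE 0.18, limma adjusted p = 0.118). It passed when the replicate number was used as a block (limma adjusted p = 0.0137), although the numbers were not found to pair the arrays. Trim30a read 8.56, 8.52 and 8.62 in Rptor-/- γδ arrays, against 8.45, 8.46 and 8.20 in WT γδ arrays. Its groups did not overlap either, with a difference of 0.19 (95% interval -0.13 to 0.51, limma adjusted p = 0.58). Trim30b had overlapping groups, 5.16 ± 0.13 in Rptor-/- and 4.89 ± 0.24 in WT γδ T cells (SD, n = 3 each; limma adjusted p = 0.212). Without WT array 3 its difference was 0.40 and passed (limma adjusted p = 0.0493).

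Of the 3 p200 genes 0 passed the limma threshold in γδ T cells (0 upward and 1 downward at an unadjusted p under 0.05). The shares of all genes were 1.77% upward and 1.28% downward, from which 0 of 3 is not apart. Ifi204 read 3.27, 3.43 and 4.12 in Rptor-/- γδ arrays, against 3.97, 3.48 and 3.35 in WT γδ arrays. The groups were interleaved, with a difference of 0.01 on the log2 scale (95% interval -0.40 to 0.42, limma adjusted p = 0.989), and the levels ranked at the 3.49th percentile of genes. Aim2 read 8.60, 8.63 and 8.63 in Rptor-/- γδ arrays, against 9.02, 8.88 and 8.95 in WT γδ arrays. All 3 Rptor-/- arrays were below the WT arrays, and the difference of -0.33 did not pass (SE 0.10, limma adjusted p = 0.084). Mndal overlapped between genotypes at 10.53 ± 0.29 in Rptor-/- and 10.65 ± 0.08 in WT γδ T cells (SD, n = 3 each; limma adjusted p = 0.727).

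**Figure D2:**
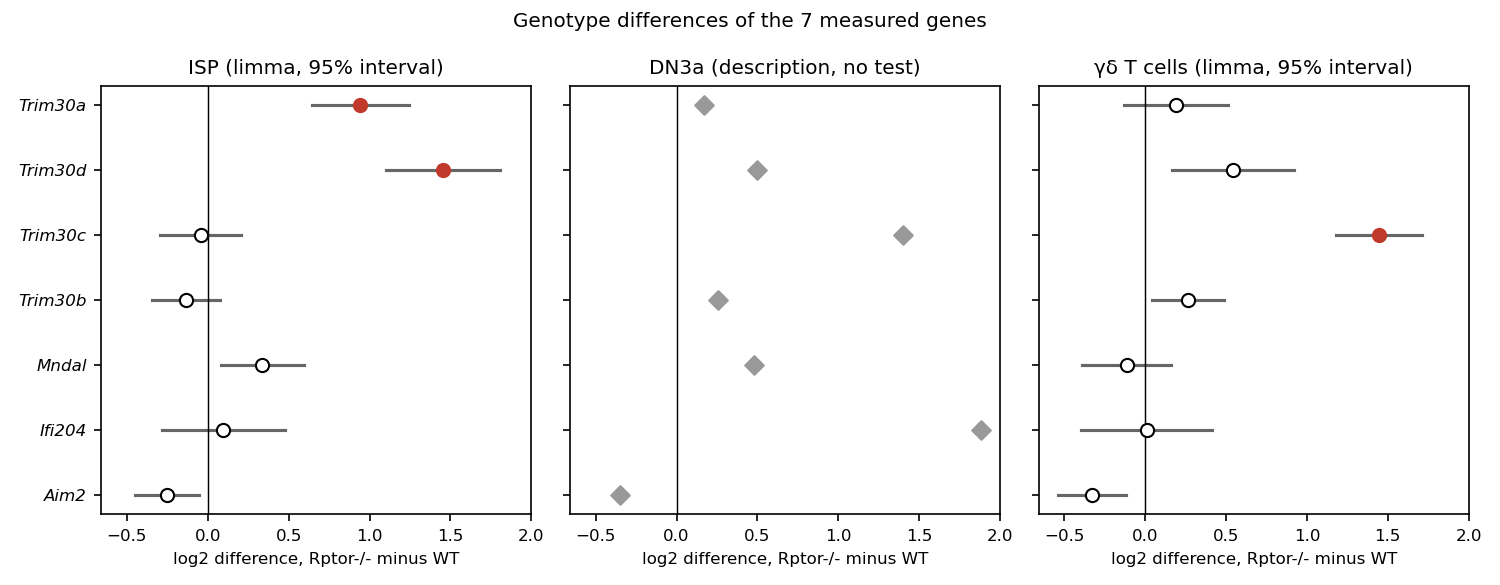
Difference in log2 expression value, Rptor-/- minus WT (x axis), of each measured gene (y axis) in the 3 populations, with 95% limma intervals and filled points for an adjusted p under 0.05 in ISP and γδ T cells, and differences alone in DN3a cells. Trim30a and Trim30d are filled in ISP cells at 0.94 and 1.45, and Trim30c is filled in γδ T cells at 1.45.

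The DN3a values, which chose the genes, were as follows. Ifi204 read 5.33, 5.78 and 5.16 in Rptor-/- DN3a arrays, against 3.73, 3.43 and 3.46 in WT DN3a arrays. Each Rptor-/- array was more than 1 log2 unit above each WT array, and the means were 1.88 log2 units apart. The WT arrays ranked at the 3.56th to the 6.47th percentile of genes, near the bottom of the measured range, so no fold is given. Trim30c read 7.56, 7.62 and 7.59 in Rptor-/- DN3a arrays, against 6.43, 6.05 and 6.09 in WT DN3a arrays. The Rptor-/- arrays lay within 0.1 log2 units of each other and the means were 1.40 log2 units apart.

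Smaller differences in the same direction were seen for Trim30d, with 8.62, 8.75 and 8.52 in Rptor-/- and 8.37, 8.07 and 7.96 in WT DN3a arrays, and for Mndal, with 11.18, 10.81 and 10.84 in Rptor-/- and 10.34, 10.58 and 10.46 in WT DN3a arrays. Neither gene overlapped between genotypes, and both means differed by less than 0.5 log2 units. Aim2 lay the other way, at 8.51, 8.40 and 8.30 in Rptor-/- and 8.65, 8.87 and 8.73 in WT DN3a arrays. In all, 5 of the 7 genes were higher with no overlap, Trim30b among them at 0.26 log2 units, 1 was lower with no overlap and 1, Trim30a, overlapped with a difference of 0.17. The background was 10.4% of all genes higher and 6.74% lower with no overlap, and nothing is read from the members' count because this comparison chose them.

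Markers of myeloid cells, in which p200 genes are known to be active, were read beside these values. Of 14 markers, all measured, 1 was higher and 0 lower with no overlap in DN3a cells, beside 10.4% and 6.74% of all genes. The higher marker was Lyz2, the lysozyme gene of macrophages and granulocytes. It read 7.59, 7.98 and 8.40 in Rptor-/- DN3a arrays, against 6.77, 7.27 and 6.81 in WT DN3a arrays. Its lowest Rptor-/- array was above its highest WT array. The summed signal of the 14 markers was 9.62 to 9.80 on the log2 scale in Rptor-/- and 9.47 to 9.53 in WT DN3a arrays. The other markers overlapped between genotypes, 8 of the 14 had a lower mean in Rptor-/- DN3a cells, and the median difference was -0.06. The mean of their log2 values was 5.54 to 5.56 in Rptor-/- and 5.51 to 5.55 in WT DN3a arrays. On the γδ arrays the sum was 9.44 to 9.69 in Rptor-/- and 9.59 to 9.73 in WT. There 1 marker passed by limma upward and 1 downward, beside 1.77% and 1.28% of all genes. Groups did not overlap for 2 markers higher and 3 lower, beside 12.2% and 8.78% of all genes. The higher by limma in Rptor-/- γδ T cells was Tyrobp, a signalling adaptor of myeloid and NK cells, by 1.07 log2 units (limma adjusted p = 0.00378). The lower was the chemokine receptor gene Ccr2, with a difference of -0.99 (limma adjusted p = 0.0016). On the ISP arrays the sum was 7.36 to 7.63 in Rptor-/- and 7.45 to 7.84 in WT. Of the 14 markers 0 passed by limma in ISP cells, beside 5.87% of all genes upward and 6.57% downward. At an unadjusted p under 0.05 the counts were 0 upward and 1 downward. These values carry no true 0, and the part of any such cells in the Ifi204 signal was not tested.

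Markers of the sorted stages also moved with genotype. By limma 5.87% of all genes rose and 6.57% fell in Rptor-/- ISP cells, and 1.77% and 1.28% in Rptor-/- γδ T cells. In DN3a cells 10.4% of all genes were higher and 6.74% lower with no overlap. In Rptor-/- ISP cells 5 of 7 measured DN3a markers rose and 1 fell, and their summed signal was 11.23 to 11.36 on the log2 scale in Rptor-/- and 10.74 to 10.78 in WT ISP arrays. Of 4 measured γδ markers 2 fell in Rptor-/- ISP cells, Id3, an inhibitor of E proteins, with a difference of -2.29 (limma adjusted p = 1.07e-09), and Il7r, the interleukin 7 receptor chain, with -1.68 (limma adjusted p = 4.21e-06). In DN3a cells 6 of the 7 DN3a markers were higher in Rptor-/- with no overlap, among them the Notch target Dtx1 by 1.38 and the pre-T cell receptor gene Ptcra by 0.68. Dtx1 also rose in Rptor-/- γδ T cells, by 0.57 (limma adjusted p = 0.00342), where 1 of 8 NK cell markers rose and 2 fell. The ISP markers Cd8a and Cd8b1, of 3 measured, fell in Rptor-/- γδ T cells, with differences of -0.53 (limma adjusted p = 0.0373) and -1.72 (limma adjusted p = 0.000103). The part of such shifts in the Trim30 and p200 differences was not tested.

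Between DN3a and γδ T cells, which share a scale, the order of levels depended on the gene. In WT cells Trim30a was at 8.37 ± 0.15 in γδ and 7.95 ± 0.09 in DN3a cells, with no overlap, and Aim2 at 8.95 ± 0.07 and 8.75 ± 0.11 (SD, n = 3 each), also with no overlap. Trim30c ran the other way, at 5.63 ± 0.25 in WT γδ and 6.19 ± 0.21 in WT DN3a cells (SD, n = 3 each), again with no overlap. Ifi204 did not differ beyond its spread, at 3.60 ± 0.33 in WT γδ and 3.54 ± 0.16 in WT DN3a cells (SD, n = 3 each). In Rptor-/- cells Ifi204 was at 3.61 ± 0.45 in γδ and 5.42 ± 0.32 in DN3a cells (SD, n = 3 each), with no overlap. Those DN3a values helped choose Ifi204. The share of all genes with no overlap between DN3a and γδ T cells was not counted, so these comparisons are descriptions. Whether a genotype difference itself differed between populations was not tested, because the ISP arrays are on another scale and the DN3a contrast chose the genes.

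Across the 12 DN3a and γδ arrays the genes did not form 1 group. Trim30c correlated with Aim2 at r = -0.914, with Ifi204 at r = 0.715 and with Trim30a at r = 0.0437. Trim30a correlated with Trim30d at r = 0.687. In the 7 ISP arrays Trim30a correlated with Trim30d at r = 0.781, with Mndal at r = 0.859 and with Trim30b at r = -0.964. These are descriptions over arrays that share groups and normalization. The 12 arrays include the DN3a arrays whose values chose Ifi204 and Trim30c, so a positive r between these genes was favoured by the choice.

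The other genes of both families were read from the same fit, which called 5.87% of all genes upward and 6.57% downward in ISP cells. The shares in γδ T cells were 1.77% and 1.28%. Of 9 further tripartite motif genes 7 were measured, and 3 rose and 0 fell in Rptor-/- ISP cells, with a median of 0.34 log2 units. Trim34a, the first gene of the same chromosome 7 cluster, rose by 0.79 (limma adjusted p = 5.46e-05), Trim12a, also of that cluster, by 0.61 (limma adjusted p = 0.00506) and Trim21, a cytosolic antibody receptor, by 0.56 (limma adjusted p = 0.00291). When only the ISP arrays entered the fit, 1 of the 3 passed, Trim34a. Trim6 passed downward under several alternatives. Of the rest, Trim12c was at 0.34 (limma adjusted p = 0.239), Trim6 at -0.41 (limma adjusted p = 0.0501), Trim68 at 0.14 and the pseudogene Trim30e-ps1 at -0.0023. None passed in γδ T cells by limma (0 of 7), and 0 at an unadjusted p under 0.05, with differences of -0.08 to 0.26. In DN3a cells 3 of the 7 were higher with no overlap and 0 lower, beside 10.4% and 6.74% of all genes.

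Of 10 further p200 genes 7 were measured, and 0 passed by limma in ISP cells (0 at an unadjusted p under 0.05) or in γδ T cells (0 upward and 1 downward at an unadjusted p under 0.05). Over all genes limma called 5.87% upward and 6.57% downward in ISP cells, and 1.77% and 1.28% in γδ T cells. A count of 0 among 7 genes is near these shares. Ifi213 was at 0.40 (limma adjusted p = 0.304) and Ifi209 at -0.38 (limma adjusted p = 0.254) in ISP cells. Ifi209 was at -0.43 in γδ T cells (limma adjusted p = 0.299), where its groups did not overlap. The other 5, Ifi202b, Ifi205, Ifi207, Ifi208 and Ifi214, lay between -0.27 and 0.15 in both populations. The medians were -0.10 in ISP and -0.02 in γδ T cells. In DN3a cells the median was 0.28. There 3 of the 7 were higher and 1 lower with no overlap, beside 10.4% and 6.74% of all genes. Ifi203-ps, a pseudogene beside Ifi204 that is in neither list and is named because its DN3a value stood out, was at 4.78 ± 0.20 in Rptor-/- and 3.95 ± 0.17 in WT DN3a cells (SD, n = 3 each). It was at 4.58 ± 0.27 in Rptor-/- γδ T cells and 4.58 ± 0.22 in WT γδ T cells (SD, n = 3 each).

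The order of the genes along the chromosome was used to see how far the differences reached. Around each cluster the 15 nearest measured genes on each side were read, with genes of both families left out. Those left out, which could include Trim6, Trim21 and Trim68, are given above and do not enter the counts below. With Gm15133, a non-coding RNA gene inside the Trim30 cluster, this gave 31 genes, 24 of them olfactory receptor genes. The p200 cluster had 30, of which 20 were olfactory receptor genes. In ISP cells 0 of both sets passed by limma (0 of the Trim30 set, and 1 upward and 1 downward of the p200 set, at an unadjusted p under 0.05). In γδ T cells 1 passed, Gm15133, higher by 0.51 in Rptor-/- (limma adjusted p = 0.0231), and the p200 set had 0 (0 at an unadjusted p under 0.05). The Gm15133 call was lost without any 1 of 5 of the 6 γδ arrays. In DN3a cells 0 of the Trim30 set were higher and 6 lower with no overlap, and 2 of the p200 set were higher and 1 lower. Over all genes the shares with no overlap were 10.4% and 6.74%. Limma called 5.87% of all genes upward and 6.57% downward in ISP cells, and 1.77% and 1.28% in γδ T cells. Olfactory receptor genes are mostly silent outside the nose, so these positions give little signal to compare. Strain is labelled the same in both genotypes, and the DNA of neither cluster was read in these data.

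**Figure D3:**
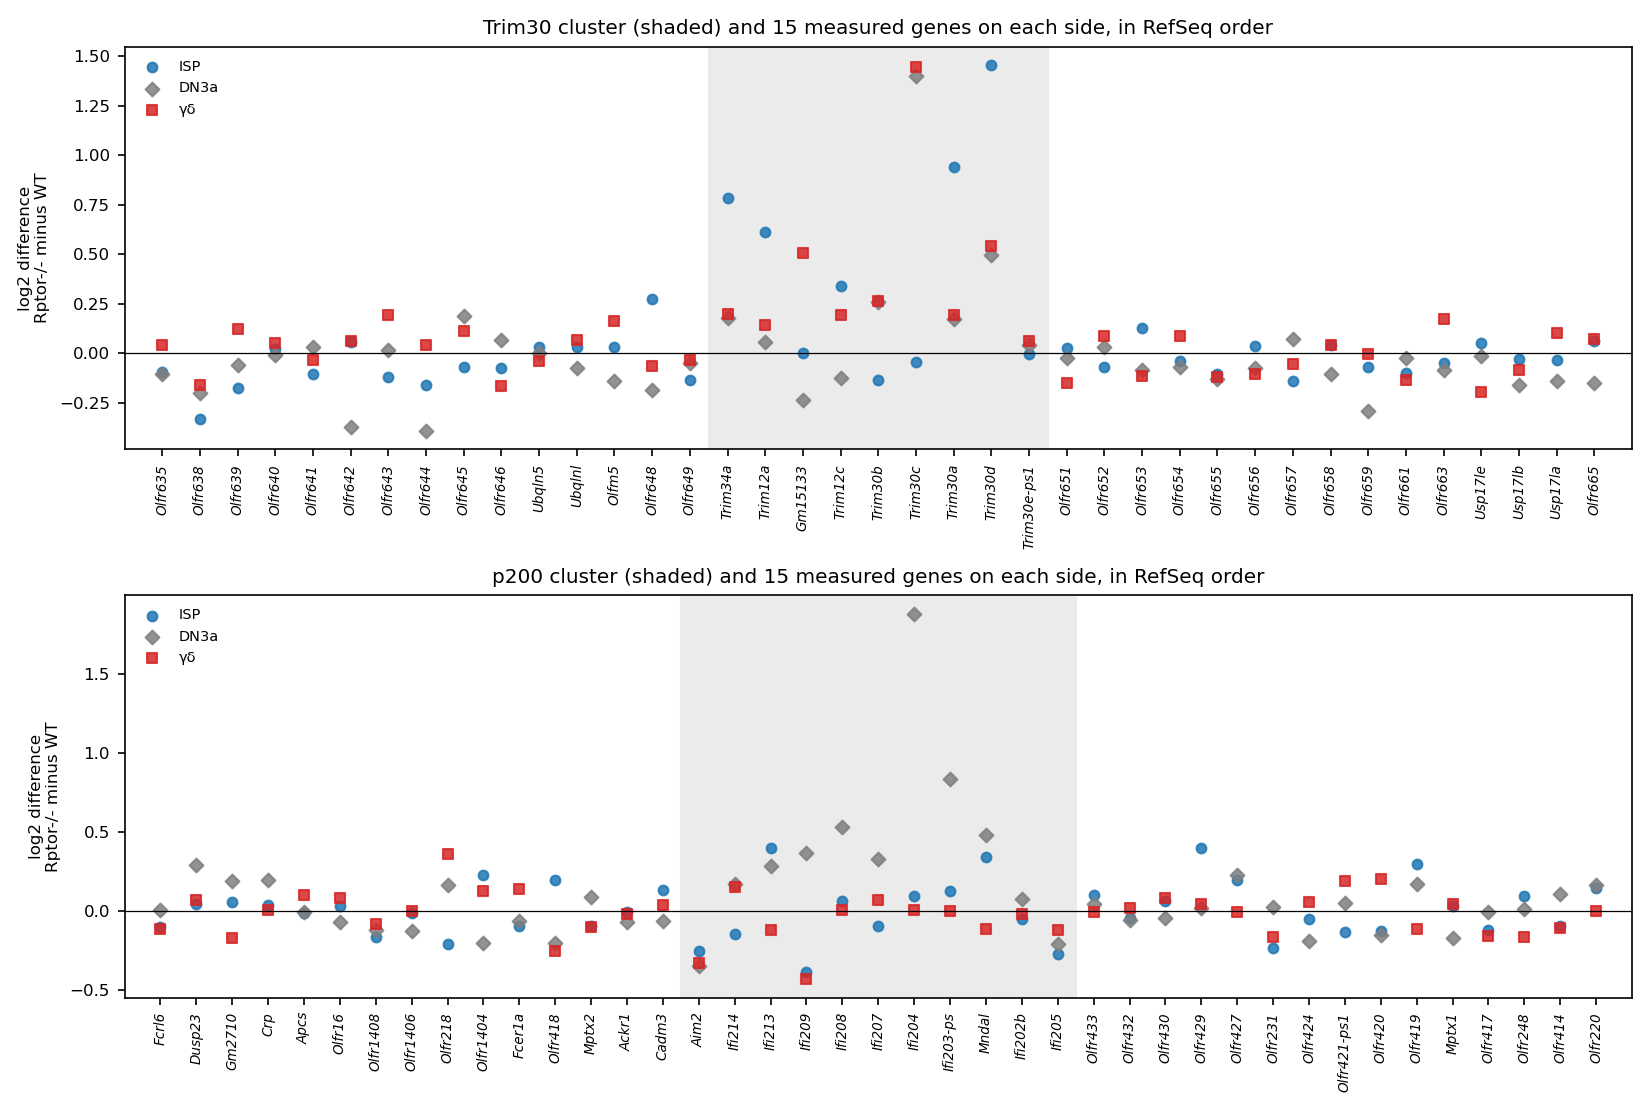
Difference in log2 expression value, Rptor-/- minus WT (y axis), of the measured genes of the Trim30 cluster (top, shaded) and the p200 cluster (bottom, shaded) and of 15 measured genes on each side, in RefSeq order (x axis), with a marker for each population. Genes of both families outside the shaded parts are left out. The differences over 1 log2 unit in size are Trim30c and Trim30d in the top panel and Ifi204 in the bottom panel.

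Genes of the interferon pathway were set beside the members, since both families are known targets of it. The background by limma was 5.87% of all genes upward and 6.57% downward in ISP cells, and 1.77% and 1.28% in γδ T cells. Among 12 measured interferon ligand genes of 14, 2 rose in Rptor-/- ISP cells, Ifna4 by 0.45 (limma adjusted p = 0.0026) and Ifna1 by 0.34 (limma adjusted p = 0.04), and 1 rose in Rptor-/- γδ T cells, Ifng by 0.54 (limma adjusted p = 0.00758). None fell in either population. The type I ligand genes have closely similar sequences, and their signals cannot be assumed to be separate. Among 17 measured receptor and signalling genes of 18, 4 rose and 0 fell in ISP cells, and 3 rose and 0 fell in γδ T cells. Ifngr1, a chain of the interferon gamma receptor, rose by 1.11 in ISP cells (limma adjusted p = 3.32e-07), with Usp18, which dampens type I interferon signalling, by 0.71 and the kinase gene Jak2 by 0.65. The transcription factor gene Irf7 rose by 0.57 in γδ T cells (limma adjusted p = 0.0295), Socs1, a feedback inhibitor of cytokine receptors, by 0.49 and Irf2 by 0.35.

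Of 27 measured interferon effector genes of 30, 9 rose and 1, Gbp3, fell in Rptor-/- ISP cells, with a median of 0.16. Over all genes 5.87% rose and 6.57% fell in ISP cells by limma, and 1.77% and 1.28% in γδ T cells. Ifi27, a mitochondrial interferon-induced gene, rose by 1.03 (limma adjusted p = 3.38e-05), Igtp, an immunity-related GTPase, by 0.84 (limma adjusted p = 2.84e-05) and Ddx58, the gene of the viral RNA sensor RIG-I, by 0.80 (limma adjusted p = 4.4e-06). With only the ISP arrays in the fit, 5 rose. In γδ T cells 4 rose and 0 fell, with a median of 0.20: Oasl1, of the oligoadenylate synthetase-like genes, by 0.70 (limma adjusted p = 0.00339), Igtp by 0.50, Parp14 by 0.42 and the RNA sensor gene Ifih1 by 0.33. The count was 6 with centred arrays, with a trended robust fit and with the dimmest genes left out, 1 without Rptor-/- array 3, 2 without WT array 2 or WT array 3, and 1 with only the γδ arrays. In DN3a cells 17 of 27 were higher with no overlap and 0 lower, beside 10.4% and 6.74% of all genes, with a median of 0.34.

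Partners of Aim2 and of Trim30a were read as well, beside 5.87% of all genes upward and 6.57% downward by limma in ISP cells. The γδ shares were 1.77% and 1.28%. Among 18 measured genes of DNA sensing and the inflammasome of 21, 3 rose and 2 fell in Rptor-/- ISP cells. Zbp1, a sensor of Z-form nucleic acid, rose by 0.91 (limma adjusted p = 0.000661), Gsdmd, the pore-forming gasdermin D, by 0.58 (limma adjusted p = 0.000167) and the kinase gene Ikbke by 0.30. The ribonuclease H2 subunit genes Rnaseh2a and Rnaseh2b fell, with differences of -0.47 and -0.53. In γδ T cells 2 rose and 0 fell, the caspase genes Casp1, by 0.63 (limma adjusted p = 0.00158), and Casp4, by 0.65 (limma adjusted p = 0.0196). Among 18 measured genes of the Toll-like receptor and NF-kB route of 20, 1 rose in ISP cells, Tnfaip3, an NF-kB feedback inhibitor, by 0.68 (limma adjusted p = 0.00887). In Rptor-/- γδ T cells 2 rose, Nfkbia, the gene of the inhibitor IκBα, by 0.31 (limma adjusted p = 0.0219) and the kinase gene Irak1 by 0.33 (limma adjusted p = 0.0371). None of this route fell in either population.

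**Figure D4:**
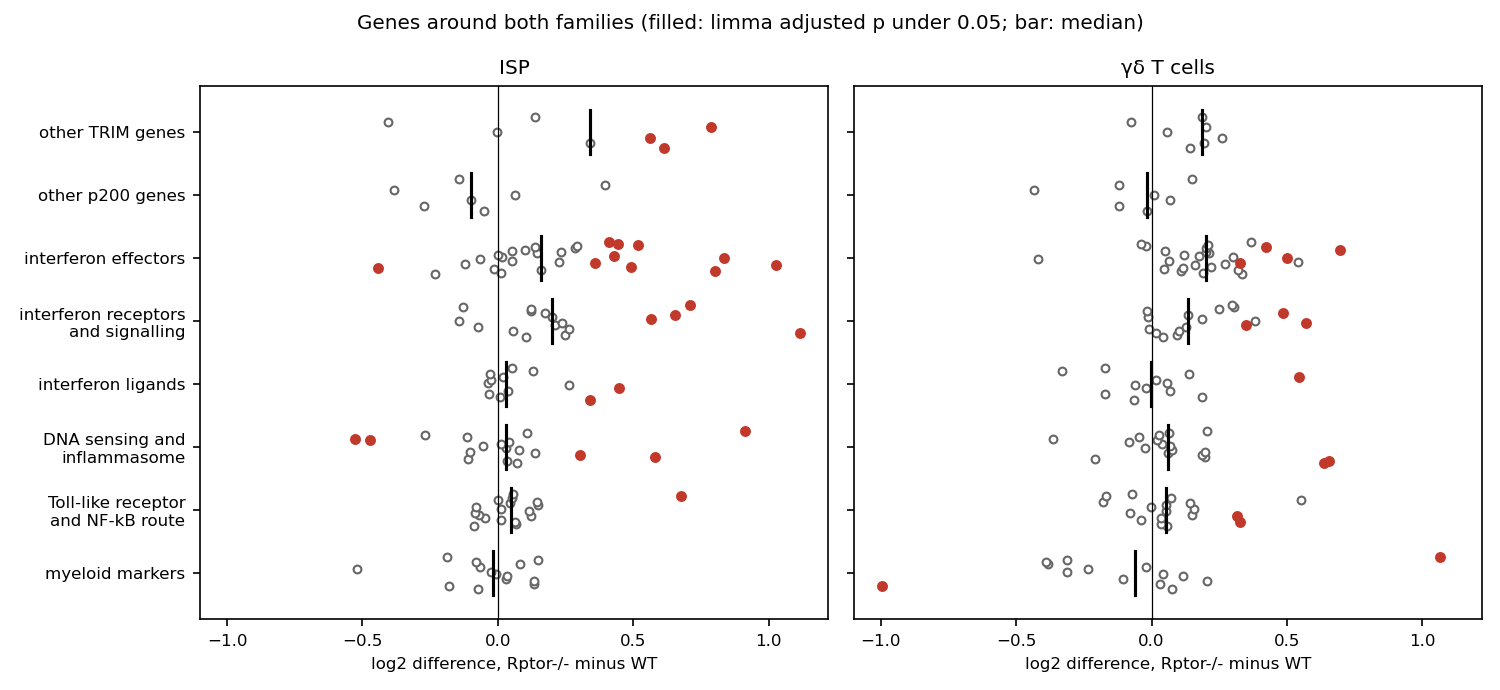
Difference in log2 expression value, Rptor-/- minus WT (x axis), of each measured gene of the lists named on the y axis, in ISP cells (left) and γδ T cells (right), filled where the limma adjusted p was under 0.05, with a bar at each list's median. The interferon effector median is 0.16 in ISP and 0.20 in γδ T cells, and the other p200 genes hold no filled point.

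The genes whose levels ran most like those of 3 members were sought by Pearson correlation over the 12 DN3a and γδ arrays, as a description that rests in part on the DN3a values that chose the genes. For Ifi204, which lay at 3.27 to 4.12 on the other 9 arrays, it mostly picks genes that were high on the 3 Rptor-/- DN3a arrays. Ifi204 was most like Pex19, a peroxisome import gene (r = 0.954), then Zmiz1 (0.948), Sstr2 (0.929), Smim7 (0.927) and Trim25 (0.918). Pex19 is also on chromosome 1, with 30 measured genes between it and Aim2. Trim30c was most like Sfrp2, a secreted modulator of Wnt signalling (r = 0.962), then S1pr2 (0.941), Akr1c12 (0.935), Fbxo6 (0.933) and Ikzf4 (0.931). Sfrp2 was higher in Rptor-/- γδ T cells by 1.36 log2 units (limma adjusted p = 1.18e-05). Trim30a was most like Snrk (r = 0.977), Adar, an interferon-inducible RNA editing enzyme (0.976), Gadd45b (0.975), Epn1 (0.974) and Suox (0.969). Like Trim30a, these genes had higher means in γδ than in DN3a cells of each genotype, so r follows that step in part. In WT cells Snrk was at 9.04 in γδ and 8.38 in DN3a cells, and Adar at 9.67 and 9.30. In the 7 ISP arrays the same correlations differed in sign. For Ifi204 they were 0.228 with Pex19, -0.776 with Zmiz1, 0.109 with Sstr2, -0.164 with Smim7 and 0.538 with Trim25. For Trim30c they were 0.525 with Sfrp2, -0.183 with S1pr2, 0.0629 with Akr1c12, -0.0398 with Fbxo6 and 0.428 with Ikzf4. For Trim30a they were 0.33 with Snrk, 0.762 with Adar, -0.691 with Gadd45b, -0.824 with Epn1 and -0.584 with Suox.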

How the data were processed

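The deposited table holds log2 expression values of 41345 probe sets on 19 arrays. Per the submitters' processing notes the authors made these log2 values with RMA in Partek 6.6, and 12 ng of RNA was used per array, per the labels' protocols. The sources used here do not state which of the arrays shared a normalization. Probe sets with 1 gene symbol (23521) were kept, those with several (1814) or unnamed (16010) were dropped; Entrez IDs gave current symbols for 23328; and a gene with several probe sets was read by the one with the highest mean, which left 22180 genes.

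Differences were fitted with limma 3.58.1 in R 4.3.3, in 1 model of 6 group means over 19 arrays with no filter. Adjustment was by Benjamini-Hochberg over all genes, with a threshold of 0.05. The fit was tested on simulated data with normal noise and the same SD for a gene on all 19 arrays. Those data lack the separate scale and the equal values of the ISP arrays, so they do not check the shared spread there. Exact permutation tests used scipy 1.17.1. The genes and lists were chosen with earlier results of these data known. Named were all members, all measured genes of both families, up to 3 genes per other list and population by smallest p, the 5 genes most like 3 members, and neighbours past the threshold; Gbp3, Ifih1, Ikbke, Rnaseh2b in ISP cells, Lyz2, Tyrobp, Ccr2, Cd8a, Cd8b1, Dtx1, Ptcra, Id3, Il7r and Ifi203-ps were named after their values were seen. Start site sequences are RefSeq's, build GRCm38.p6, aligned with Biopython 1.88. Paralogs of both families may share probe signal, and probe sequences were not used here. Replicate correlations were 0.993 to 0.997, a gene's SD among the arrays of 1 group had a median of 0.0883 to 0.117, and the number of arrays limits precision. Same-numbered arrays did not deviate together (r over 0.1 in 2 of 9 pairs, -0.104 to 0.242), so the replicate number was used only in an alternative.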

Additional observations from a re-analysis of the deposited data

Results flagged for a closer look

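Of 8 checks for a single array far from the rest of its group, all in the 4 WT ISP arrays, 2 gave one. The chance rate of about 1 in 20 groups holds for values without ties. These checks share arrays and hold equal values, so their count cannot be set against that rate. Trim30c read 2.63 on WT ISP array 3, while the other 3 WT ISP arrays carried the identical value 2.37, so the gap was the whole range (ratio 1.0). Rptor read 6.34 on the same array, against 6.49, 6.47 and 6.48 on the other WT ISP arrays, a gap of 0.863 of the range. The value of the array equals the highest Rptor-/- ISP value. Among the 7 ISP arrays 62.0% of genes had at least 1 pair of exactly equal deposited values, Trim30b, Trim30c, Ifi204, Aim2 among them, against 0.803% over the 12 DN3a and γδ arrays, and equal values were counted as overlap.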

How the results depend on the processing

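The calls of Trim30a and Trim30d in ISP cells and of Trim30c in γδ T cells held under every alternative run: only the arrays of that population, arrays centred on their median, quantile normalization across all arrays, a trended robust fit, the mean of all probe sets of a gene, every probe set tested, the dimmest 25% of genes left out, the replicate block, and each array left out. Not all of these are separate checks. Each of these genes had 1 probe set, so the mean of all probe sets could not change its difference. In ISP cells the replicate block gave the same differences as leaving out WT array 4 (Trim30a 0.90, Trim30d 1.53). With arrays left out, Trim30a was 0.81 to 1.09, Trim30d 1.27 to 1.60 and Trim30c 1.32 to 1.57. The highest limma adjusted p of any alternative was 0.0472, for Trim30a with only ISP arrays. With only the ISP arrays 1 other family gene and 5 interferon effectors passed upward in ISP cells, and with quantile normalization 1 neighbour, Olfr429, passed; with arrays left out, neighbours in ISP cells ranged from 0 to 1. Of the other family genes in ISP cells, Trim6 passed downward in 7 of the 15 alternatives, Ifi205 in 2 (the replicate block and without WT array 4) and Ifi209 in 1 (without WT array 1). In γδ T cells 2 members passed with the replicate block (Trim30d, adjusted p = 0.0137), and 1 to 2 with arrays left out (2 without WT array 3); interferon effectors were 6 with centred arrays, with the trended robust fit and with the dimmest genes left out, 1 with only γδ arrays, 2 with every probe set tested and 1 to 4 with arrays left out; neighbours were 0 with every probe set tested and 0 to 1 with arrays left out. Differences near 0 changed sign: Trim30c in ISP cells was 0.027 without Rptor-/- array 1 and 0.020 without WT array 3 (-0.16 to 0.027 in all), Ifi204 in ISP cells was -0.019 without Rptor-/- array 2 (-0.019 to 0.15), and Ifi204 in γδ T cells was -0.025 with quantile normalization and fell below 0 without Rptor-/- array 3 (-0.25), WT array 2 (-0.053) or WT array 3 (-0.12), with a range of -0.25 to 0.19. Trim30b in γδ T cells passed without WT array 3 (0.40), and Aim2 there passed with quantile normalization (-0.41, adjusted p = 0.0317). Rptor in ISP cells missed the threshold with only ISP arrays (-0.24), every probe set tested (-0.24), quantile normalization (-0.22) and the replicate block (-0.23), and with arrays left out was -0.31 to -0.18, missing it in 5 of 7 fits. Rptor in γδ T cells missed it with only γδ arrays, every probe set tested and the replicate block (-0.30 each) and with centred arrays (-0.26), and with arrays left out was -0.33 to -0.27, missing it in all 6 fits (adjusted p = 0.0713 to 0.156). The replicate block gave 2629 called genes in ISP, 212 in DN3a and 691 in γδ T cells, against 2759, 218 and 677 without it, and it changed no other member's call. Where the dimmest genes were left out, Trim30b, Trim30c and Ifi204 in ISP cells and Ifi204 in DN3a and γδ T cells had no value. The causes of these changes were not tested. At the low signal of Trim30c and Ifi204 on the ISP arrays a difference may not be measurable.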
